A study of Mus musculus with 15 samples.

Results

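The 10 genes described here encode small neuronal proteins that bind calcium through EF-hands. They are the calbindins *Calb1* (calbindin) and *Calb2* (calretinin), the neuronal calcium-binding proteins *Necab1*, *Necab2* and *Necab3*, and the visinin-like calcium sensors *Ncald* (neurocalcin delta), *Hpca* (hippocalcin), *Hpcal1*, *Hpcal4* and *Vsnl1* (VILIP-1). They were taken by symbol, and all 10 were found among the 26835 genes of the *Lhx6* table and among the 25714 genes of the *Mtg8* table. RNA was sequenced from YFP-positive cells sorted from the cortex of single mouse embryos at E14.5, on a mixed C57BL6/CBA background, so that each library is 1 embryo. All embryos carried the Nkx2-1-CreTg transgene and the R26R-YFP reporter (fl/fl). *Nkx2-1*-driven Cre marks cells derived from the medial ganglionic eminence (MGE), the embryonic source of many cortical interneurons. The *Lhx6* comparison had 4 Lhx6+/+ controls and 5 Lhx6-/- mutants, and the *Mtg8* comparison had 3 Mtg8+/+ controls plus 3 libraries labelled Mtg8-/-, and the study's methods call control and mutant littermates. The mutations are germline, so that they affect all cells of the embryo and not the sorted cells alone. Each question is whether a gene's level differs between control and mutant in 1 table. The tables were normalized separately, and no value was tested between them.

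An EF-hand is a helix-loop-helix in which a short acidic loop holds a calcium ion. Calbindin and calretinin are soluble proteins with several such hands that buffer calcium, and in the cortex they are classic markers of interneuron subtypes. Calbindin also marks MGE-derived interneurons while they migrate, and calretinin marks many interneurons of the caudal ganglionic eminence (CGE) and Cajal-Retzius cells of the marginal zone. The visinin-like proteins are sensors rather than buffers. They carry a myristoyl group at the N terminus, and on binding calcium they expose it and move to membranes. NECAB proteins join an N-terminal EF-hand region to a C-terminal monooxygenase-like domain.

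The coding stretches of EF-hand loops are shown because they are what makes these genes a family, and because they let the members be set beside each other. Each was read from the GENCODE M21 transcripts (GRCm38), 5′ to 3′ on the coding strand, with the 36 bases of a loop in lower case and the codons of loop positions 1, 3, 5 and 12, which contribute calcium ligands, in capitals. The 5 visinin-like sensors are shown at codons 109 to 120, which lie at the same place in each.
Ncald: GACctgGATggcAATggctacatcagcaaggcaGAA
Hpca: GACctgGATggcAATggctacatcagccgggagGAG
Hpcal1: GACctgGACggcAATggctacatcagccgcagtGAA
Hpcal4: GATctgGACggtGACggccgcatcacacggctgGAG
Vsnl1: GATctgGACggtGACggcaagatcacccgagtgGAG
Calb1: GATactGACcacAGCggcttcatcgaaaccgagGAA
Calb2: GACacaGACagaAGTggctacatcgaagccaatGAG
Necab1: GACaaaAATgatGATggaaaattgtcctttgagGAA
Necab2: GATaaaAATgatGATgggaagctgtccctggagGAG
Necab3: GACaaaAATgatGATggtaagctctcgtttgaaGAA
These loops are at chr15:37397075-37397110 (*Ncald*, exon 5, minus strand), chr4:129118382-129118417 (*Hpca*, exon 2, minus strand), chr12:17786495-17786530 (*Hpcal1*, exon 2, plus strand), chr4:123189187-123189222 (*Hpcal4*, exon 4, plus strand) and chr12:11332019-11332054 (*Vsnl1*, exon 3, minus strand). The calbindin loops are at chr4:15895644-15895679 (*Calb1*, exon 5, plus strand) and chr8:110149362-110149397 (*Calb2*, exon 5, minus strand). Each NECAB loop is split between exons 2 and 3, with an intron inside the stretch, at chr4:15111277-15140234 (*Necab1*, minus strand), chr8:119450097-119452107 (*Necab2*, plus strand) and chr2:154555667-154557066 (*Necab3*, minus strand).

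The EF-hand loop pattern of PROSITE, searched in the translated coding sequences, matched 4 times in *Calb1*, 5 times in *Calb2*, 1 time each in *Necab1* and *Necab3*, 2 times in *Necab2* and 3 times in each of the 5 sensors. *Hpca* and *Hpcal1* were the closest pair, with 86.0% identical bases over the coding sequence. *Hpcal4* and *Vsnl1* shared 82.4%, and *Calb1* and *Calb2* shared 63.1%. None of the 45 pairs of members shared an identical stretch of 75 bases, the length of the sequencing reads, anywhere in their annotated transcripts. *Necab1* shares 410 exon bases with Gm11837 on the opposite strand, *Ncald* shares 286 with Gm49397 on the same strand, and in the *Lhx6* table *Necab3* shares 71 with 1700003F12Rik on the opposite strand. The sources used here do not say whether reads were counted by strand, so the values of *Necab1* in particular are uncertain.

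The libraries held 12218422 to 22053032 counted reads. *Lhx6* was at 5812 to 8441 normalized counts in its controls and at 236 to 495 in its mutants (log2 difference -4.48, limma adjusted p = 1.34e-07). *Runx1t1*, the gene of MTG8, was not lower in libraries carrying the *Mtg8* mutant label, with 12249.8 to 13934 against 7938 to 10264.5 in the controls, and these libraries are therefore called by their label. Wherever a mutant of the *Mtg8* table is named here, the word stands for that label alone. The study lists a LacZ knock-in among its *Mtg8* alleles, and gene counts cannot tell which exons were transcribed. The summed MGE interneuron markers (8 genes, *Lhx6* among them) were lower in every *Lhx6* mutant (8969 to 19976 against 32704 to 37019) and likewise in every *Mtg8* library with a mutant label (29164 to 32533 against 48269.5 to 52101). Among them, *Sst*, the gene of somatostatin, was at 39.6% of control in those *Mtg8* libraries (5683 to 8048 against 14421 to 18501) and *Npy*, the gene of neuropeptide Y, at 47.1% (1952 to 3577 against 5037 to 6247), with no overlap for either and limma adjusted p of 0.0713 and 0.580. Without *Lhx6*, *Sst* and *Npy*, a split made after values were seen, the other 5 markers summed to 11344 to 13765 in *Lhx6* controls, to 16224 in mutant 1, above all controls, and to 6408 to 10555 in the other mutants. In the *Mtg8* libraries they summed to 12242 to 14881 with a mutant label and to 17864 to 19436 in controls. Markers of pyramidal neurons (9 genes) were present throughout. They summed to 14757.5 to 20511 in *Lhx6* controls and to 11951 to 16309 in *Lhx6* mutants. *Lhx6* mutants 1, 2, 3 and 5 lay below every control in this sum. In *Mtg8* libraries it was 5557 to 13444 in controls and 8729.9 to 21791 with a mutant label. Of all marker lists, *Vip*, *Drd2* and *Alas2* were in neither table. Some libraries have a date in their name and others do not, and the sources used here do not say what this stands for. Among *Lhx6* libraries the dated ones are mutants 1, 2, 3 and 5, while mutant 6 is undated like every control. Among *Mtg8* libraries the dated ones are controls 1 and 2 and mutant 2. Names also hold a code, whose meaning is likewise not given. It is shared by *Mtg8* controls 1 and 2 and mutant 2, by *Lhx6* controls 1 and 2 and mutant 6, and by *Lhx6* mutants 2 and 5, and no *Lhx6* mutant with a dated name shares a code with a control.

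In control cells *Calb1* and *Calb2* had the highest levels of the 10 genes per length, and *Necab1* had the lowest. Levels were compared as normalized counts per kilobase of exon. In *Lhx6* controls (n = 4) *Calb1* stood at 135 ± 9.44 (SD) per kilobase, *Calb2* at 112 ± 43.1 and *Hpcal1* at 73.3 ± 36.3. *Hpca* followed at 48.8 ± 7.47, *Necab3* at 47.4 ± 14.5 and *Vsnl1* at 47.3 ± 12.9. *Ncald* was at 18.0 ± 3.53, *Necab2* at 16.1 ± 3.24, *Hpcal4* at 12.8 ± 6.19 and *Necab1* at 3.35 ± 2.05. Neighbours in this order overlapped in their control libraries, apart from the step from *Vsnl1* to *Ncald* (2.63-fold), so the order of neighbours among the first 6 and among the last 4 is not settled. *Calb1* lay above every library of *Hpcal1*, *Hpca*, *Necab3* and *Vsnl1*, and *Necab1* lay below every library of *Ncald* and *Necab2*. *Calb1* had the lowest coefficient of variation in these embryos, at 6.97%, against 61.2% for *Necab1*, 49.5% for *Hpcal1* and 48.3% for *Hpcal4*.

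In *Mtg8* controls (n = 3) *Calb1* was again first, at 233 ± 45.0 (SD) normalized counts per kilobase, 2.26-fold above *Calb2* at 104 ± 10.4. *Vsnl1* came next at 64.3 ± 8.35. *Necab3*, *Hpca* and *Hpcal1* followed at 45.3 ± 6.74, 44.0 ± 6.24 and 39.9 ± 4.95, and the neighbours among these 3 overlapped. *Ncald* stood at 28.9 ± 4.69 and *Hpcal4* at 18.3 ± 4.91. *Necab2* and *Necab1* were last, at 4.35 ± 1.08 and 3.56 ± 0.656, and overlapped each other. The coefficient of variation of *Calb1* was 19.3% in these controls, and *Calb2* had the lowest, at 10.03%. Among all genes with a control mean of at least 10 normalized counts, the per-kilobase level of *Calb1* was at percentile 73.7 here and at percentile 65.2 in the *Lhx6* table, while *Necab1* was at percentiles 3.56 and 3.13.

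**Figure D1:**
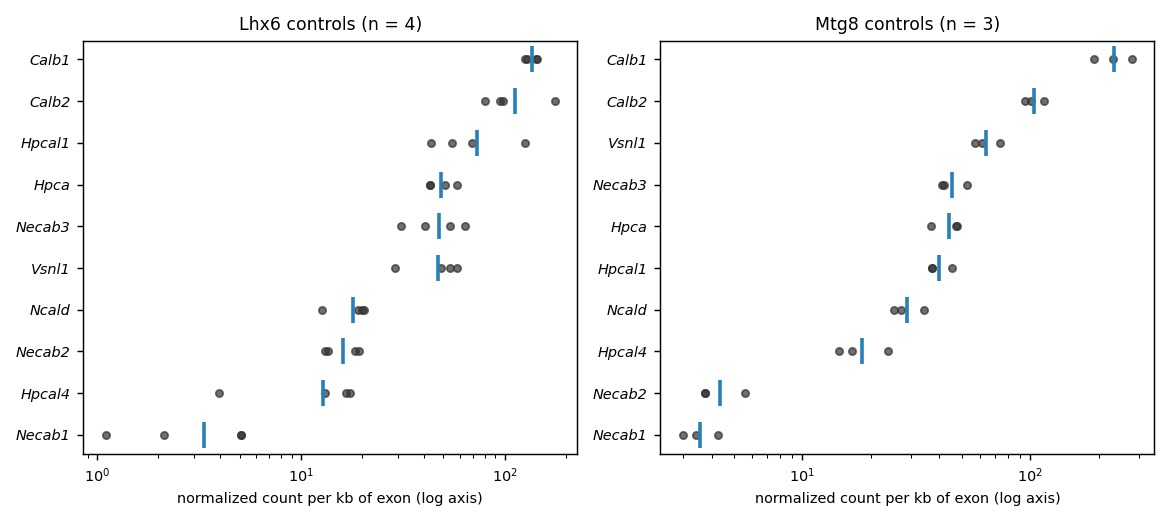
Level of each gene in control libraries, as normalized counts per kilobase of exon on a log axis, in *Lhx6* controls (left, n = 4) and *Mtg8* controls (right, n = 3). Each dot is a library and each blue bar the mean, and the genes are ordered by mean, with *Calb1* first (135 and 233) and *Necab1* last (3.35 and 3.56) in both panels.

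*Calb1* was the only member that limma called in *Lhx6* mutants, and with all libraries edgeR and DESeq2 did not call it. Calbindin transcripts were at 692, 699, 624 and 611 normalized counts in *Lhx6* controls 1 to 4. They were at 2.47, 326, 27.9, 38.8 and 26.0 in mutants 1, 2, 3, 5 and 6. Every mutant lay below every control, and mutant 2 stood far above the other mutants, which were at or below 38.8. Controls averaged 656 ± 45.8 (SD, n = 4), mutants averaged 84.2 ± 136 (SD, n = 5), and the mutant mean was 12.8% of the control mean, and the mutant median was 27.9. In mutant 1 the value rests on 2 reads, against 677 to 789 reads in the controls. *Calb1* (ENSMUSG00000028222.2, chr4:15881264-15908064 on GRCm38, plus strand) fell by 4.34 on the log2 scale (standard error 0.90, 95% interval -6.29 to -2.40, adjusted p = 0.0265 from limma on log2(normalized count + 1), two-sided). An exact two-sided permutation test of the group means gave p = 0.0159, where 0.00794 is the smallest that 4 libraries against 5 allow.

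The direction of the *Calb1* difference held in every analysis, but the call did not. With all libraries, edgeR gave -2.93 (adjusted p = 0.112) and DESeq2 gave -2.96 (adjusted p = 0.0870), and neither called it. Without mutant 2, an alternative chosen after the data were seen for the count tools, limma gave -5.18 (adjusted p = 0.00134), edgeR -4.76 (adjusted p = 0.000299) and DESeq2 -4.77 (adjusted p = 9.17e-29). Without mutant 1, whose value rests on 2 reads, the limma difference was smaller, at -3.54 (adjusted p = 0.0111). In limma the call was lost when any of the 4 controls was left out (adjusted p from 0.0725 to 0.0927) and when mutant 3 (0.0524) or mutant 5 (0.0630) was left out. It was also lost without the trend (adjusted p = 0.112) and with the replicate number as a block (-4.39, adjusted p = 0.154). The block value rests on the 3 same-numbered pairs alone, and that fit leaves little to estimate error from. With dated against undated naming as a covariate, the value is that of mutant 6 against the 4 controls, all with undated names, and was -4.60 (adjusted p = 0.542 from limma). Name style and genotype can otherwise not be told apart in this table.

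The *Lhx6* value of mutant 2 was 236, the lowest of the mutants, and its *Sst* value was 1401, inside the 1180.0 to 1696 of the other mutants and below the 10942 to 12779.9 of the controls. Somatostatin is a peptide of MGE interneurons. In bulk RNA of sorted cells, fewer cells of a type and less RNA per cell cannot be told apart. Markers of CGE interneurons (5 of 6 genes in the table) summed to 2188 to 2866 in the mutants and to 1182 to 1377 in the controls, with no overlap. Markers of striatal projection neurons (8 of 9 genes in the table, *Tac1* among them) summed to 2755 in mutant 2, to 1476 to 1629.7 in the other mutants and to 962 to 1356 in the controls. Erythroid markers (5 of 6 genes in the table) summed to 1798 in mutant 2 and to 12751.6 to 20401 in the other mutants. In the controls they ranged from 5966 to 58614.7. The part of either cell type in the *Calb1* result was not tested.

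**Figure D2:**
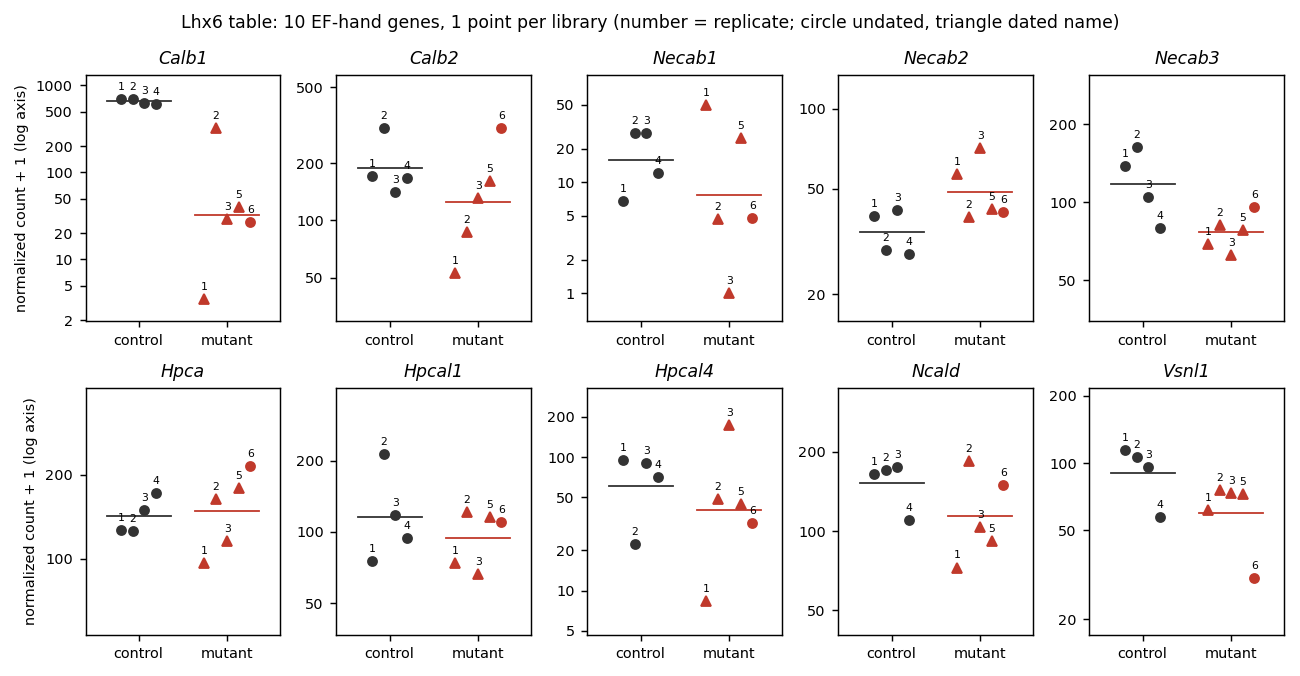
Normalized count + 1 (log axis) of the 10 genes in each library of the *Lhx6* table, with replicate numbers beside the points, 4 controls in black and 5 mutants in red. Circles are libraries with undated names, triangles those with dated names, and bars are group means on the log2 scale. In *Calb1* the groups do not overlap and mutant 2 (326) lies between the controls (611 to 699) and the other mutants (2.47 to 38.8).

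**Figure D3:**
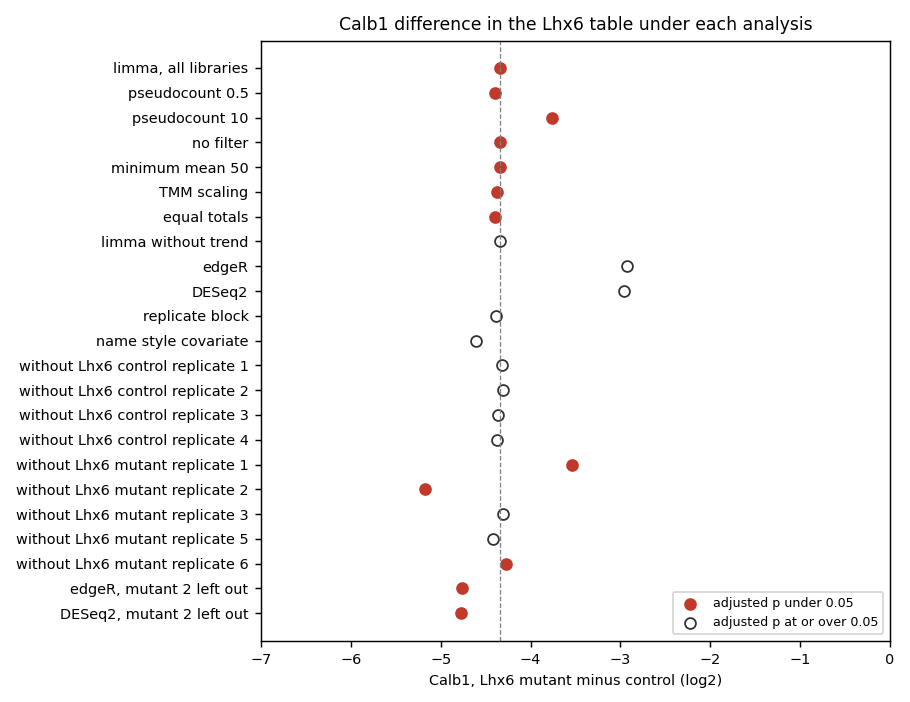
*Calb1* difference in the *Lhx6* table (log2, mutant minus control) under each analysis. Filled points passed an adjusted p of 0.05 and open points did not, and the dashed line marks the value with all libraries in limma (-4.34). All points lie between -5.18 and -2.93.

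Over the whole *Lhx6* table limma called 286 of 16727 genes (1.71%), and *Calb1* was the 1 call among the 10 members. By edgeR 1.67% of genes and by DESeq2 4.76% were called, with 0 members by either tool. At an unadjusted limma p under 0.05 there were 2 members, *Calb1* and *Necab3*, where 12.7% of all genes reached that level. Groups did not overlap, with the mutant lower, in 1 member (*Calb1*) and in 3.03% of all genes. They did not overlap, with the mutant higher, in 0 members and in 3.19% of all genes. The median log2 difference of the 10 members was -0.60, with 8 of 10 below 0, against a median of -0.04 and 53.4% below 0 among all genes tested.

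*Calb2*, the closest relative of *Calb1* among the members, was not called in *Lhx6* mutants. Its values were 171, 307, 140.03 and 166 in controls 1 to 4 and 52.0, 86.1, 129, 159.8 and 305 in mutants 1, 2, 3, 5 and 6. The groups overlapped widely, and mutant 6, the mutant with an undated name, was as high as control 2. The log2 difference was -0.60 (95% interval -1.53 to 0.34, adjusted p = 0.582 from limma). Its sign turned with name style as a covariate, at 0.70, which is mutant 6 alone against the 4 controls. Markers of Cajal-Retzius cells (5 genes, a list chosen after values were seen) summed to 1755 to 2992 in controls and 2079 to 3016 in mutants.

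None of the NECAB genes passed the test in *Lhx6* mutants. *Necab3*, whose protein binds an adaptor of the amyloid precursor protein, was at 137, 163, 104 and 78.7 in controls and at 68.1, 80.5, 61.5, 77.5 and 95.3 in mutants. Controls averaged 121 ± 37.0 (SD, n = 4) and mutants 76.6 ± 12.9 (SD, n = 5), with a log2 difference of -0.61 (95% interval -1.20 to -0.02, adjusted p = 0.375 from limma, unadjusted 0.0426). Control 4 lay inside the mutant range and the other controls above it. *Necab2* ranged from 27.4 to 40.5 in controls and from 37.9 to 69.9 in mutants (log2 difference 0.50, 95% interval -0.21 to 1.22, adjusted p = 0.551 from limma). *Necab1* ranged from 5.77 to 26.7 in controls and from 0 to 48.3 in mutants, with 0 reads in mutant 3, where 3 reads would be a normalized count of 2.79. Its log2 difference was -1.03 with an interval from -3.28 to 1.21, which covers large changes in either direction. Without mutant 3 the difference was -0.30 in limma, and with all libraries edgeR gave -0.16 and DESeq2 -0.14.

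The visinin-like sensors did not pass the test in *Lhx6* mutants. *Vsnl1* was at 113, 105, 94.9 and 56.4 in controls and at 60.6, 75.0, 72.6, 71.7 and 29.7 in mutants. Control 4 lay inside the mutant range, and the other 3 controls lay above all mutants. The log2 difference was -0.60 (95% interval -1.34 to 0.15, adjusted p = 0.496 from limma). With name style as a covariate it was -1.56, which sets mutant 6, the lowest library, alone against the 4 controls. *Ncald* ranged from 109 to 174 in controls and from 71.8 to 183 in mutants (log2 difference -0.43, 95% interval -1.07 to 0.21). *Hpcal1* ranged from 74.0 to 213 and from 65.2 to 120.3 (log2 difference -0.29, 95% interval -1.004 to 0.42). *Hpcal4* spread most, from 21.3 to 93.3 in controls and from 7.42 to 172 in mutants (log2 difference -0.61, 95% interval -2.17 to 0.96). Without mutant 1, which had 6 reads of it, the limma difference was -0.045, and with all libraries edgeR and DESeq2 each gave -0.18. *Hpca* ranged from 125 to 171 in controls and from 95.3 to 214 in mutants. Its log2 difference was 0.05 (95% interval -0.52 to 0.63, adjusted p = 0.940 from limma). With name style as a covariate it was 0.60, again mutant 6 alone against the 4 controls. The intervals of *Hpca*, *Hpcal1* and *Ncald* leave room for changes of up to about 1 on the log2 scale.

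Among *Lhx6* libraries, control 2 held the highest value of 4 members (*Calb1*, *Calb2*, *Hpcal1* and *Necab3*). Mutant 1 held the lowest value of 5 members (*Calb1*, *Calb2*, *Hpca*, *Hpcal4* and *Ncald*) and the highest of *Necab1*. Mutant 3 held the highest value of *Hpcal4* and *Necab2* and the lowest of *Hpcal1*, *Necab1* and *Necab3*. Control 2 also had the highest pyramidal marker sum of the table (20511), and mutant 1 was among the 2 shallowest libraries, with 13314727 reads. The part of either in these values was not tested.

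In the libraries labelled *Mtg8* mutant, 6 of the 9 members tested did not overlap with controls, with *Vsnl1* and *Hpcal4* lower and *Calb2*, *Hpca*, *Necab3* and *Hpcal1* higher, but none passed the test over all genes. limma called 0 of 16132 genes (0%), edgeR 1 gene (0.0062%) and DESeq2 30 genes (0.186%), with 0 members by any of the 3. At an unadjusted limma p under 0.05 there were 4 of 9 members, *Vsnl1*, *Hpca*, *Calb2* and *Necab3*, and 5.49% of all genes. Groups did not overlap, with the mutant lower, in 2 members and in 5.52% of all genes, and with the mutant higher in 4 members and in 4.68% of all genes. The median log2 difference of the 9 members was 0.29, with 4 of 9 below 0, against -0.01 and 51.5% below 0 among all genes. *Necab2* had a mean under 10 and was not tested. An exact permutation test of 3 libraries against 3 cannot go below p = 0.1. Any gene without overlap reaches that value, so for the 6 members it adds nothing to the lack of overlap.

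*Vsnl1* had the largest difference of the members in this table. VILIP-1 is a sensor found in many neurons of the forebrain. *Vsnl1* (ENSMUSG00000054459.8, chr12:11325242-11436613, minus strand) was at 121, 144 and 112 normalized counts in *Mtg8* controls 1, 2 and 4. Libraries labelled *Mtg8* mutant 2, 3 and 4 had 70.2, 36.8 and 45.9. Controls averaged 126 ± 16.3 (SD, n = 3) and the mutants 51.0 ± 17.3 (SD, n = 3), or 40.5% of control. The log2 difference was -1.33 (standard error 0.33, 95% interval -2.04 to -0.62, unadjusted p = 0.00151 and adjusted p = 0.769 from limma), and DESeq2 gave an adjusted p of 0.111. Within dated names (controls 1 and 2 against mutant 2) it was -0.90, and within undated names (control 4 against mutants 3 and 4) it was -1.43. Without mutant 2 it was -1.58 (adjusted p = 0.0614 from limma).

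*Hpcal4*, which is closest in coding sequence to *Vsnl1*, was at 77.1, 88.5 and 127 in controls 1, 2 and 4 and at 62.3, 68.9 and 75.7 in mutants 2, 3 and 4. The highest mutant was just under the lowest control. The log2 difference was -0.47 (95% interval -1.14 to 0.21, adjusted p = 0.870 from limma). It was -0.40 within dated and -0.81 within undated names.

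*Hpca* was at 139, 139.7 and 108 in controls 1, 2 and 4 and at 239, 225 and 196 in mutants 2, 3 and 4. Hippocalcin is best known from hippocampal and cortical pyramidal neurons, where it takes part in calcium-dependent control of excitability. All 3 mutants were well above the controls, with means of 129 ± 18.2 and 220.2 ± 21.7 (SD, n = 3 each). The log2 difference was 0.78 (95% interval 0.23 to 1.33, unadjusted p = 0.00964 and adjusted p = 0.859 from limma). It was 0.78 within dated and 0.96 within undated names.

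*Calb2* was at 175, 200.5 and 165 in controls 1, 2 and 4 and at 492.8, 356 and 208 in mutants 2, 3 and 4. Mutant 4 was just above control 2, and mutant 2 was more than 2 times any control. The means were 180.4 ± 18.1 and 352 ± 142 (SD, n = 3 each), with a log2 difference of 0.88 (95% interval 0.21 to 1.55, unadjusted p = 0.0140 and adjusted p = 0.859 from limma). It was 1.39 within dated and 0.71 within undated names. The Cajal-Retzius marker sum ranged from 1511 to 3009 in controls and from 1079 to 2901 in mutants. The CGE marker sum was 2067 in mutant 2, 1493 in mutant 3 and 1551 in mutant 4, against 1431 to 1527 in controls.

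*Necab3* was at 135, 105 and 107 in controls 1, 2 and 4 and at 287, 165 and 159 in mutants 2, 3 and 4. The log2 difference was 0.77 (95% interval 0.12 to 1.42, adjusted p = 0.859 from limma), with 1.26 within dated and 0.60 within undated names. *Hpcal1* was at 62.6, 62.9 and 77.3 in controls 1, 2 and 4 and at 128, 81.8 and 91.0 in mutants 2, 3 and 4. Its log2 difference was 0.54 (95% interval -0.12 to 1.21, adjusted p = 0.864 from limma), with 1.02 within dated and 0.16 within undated names. For both genes mutant 2 was the highest library and the other mutants lay closer to the controls.

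Mutant 2 held the highest value of *Calb2*, *Hpca*, *Hpcal1* and *Necab3* and the lowest of *Calb1*, *Hpcal4*, *Necab1* and *Necab2*. It also had the highest sum of pyramidal neuron markers, at 21791, where the other mutants had 8729.9 and 11402.5 and the controls 5557 to 13444. Markers of radial glia (7 genes) summed to 8224, 12105 and 7685 in mutants 2, 3 and 4 and to 5970.0 to 7351 in the controls, with no overlap. Markers of GABAergic neurons (7 genes) summed to 21179, 18680.3 and 35962 in the same mutants and to 30467 to 34318 in the controls. The part of these cell types in the members' values of this comparison was not tested. Without mutant 2 the log2 differences were 0.59 for *Calb2*, 0.72 for *Hpca*, 0.50 for *Necab3* and 0.35 for *Hpcal1*, all with limma adjusted p above the threshold, the lowest being 0.283 for *Hpca*.

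The remaining 4 members overlapped between *Mtg8* control and mutant. *Calb1* was at 1116, 921 and 1357 in controls 1, 2 and 4 and at 701.2, 881 and 1100.0 in mutants 2, 3 and 4, or 79.0% of control (log2 difference -0.35, 95% interval -0.85 to 0.16, adjusted p = 0.870 from limma). *Ncald* ranged from 217 to 293 in controls and from 258 to 337 in mutants (log2 difference 0.29, 95% interval -0.23 to 0.81). *Necab1* ranged from 15.7 to 22.4 and from 13.6 to 18.3 (log2 difference -0.24, 95% interval -1.24 to 0.76). *Necab2* ranged from 7.82 to 11.7 and from 6.80 to 12.996, on 6 to 17 reads a library.

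**Figure D4:**
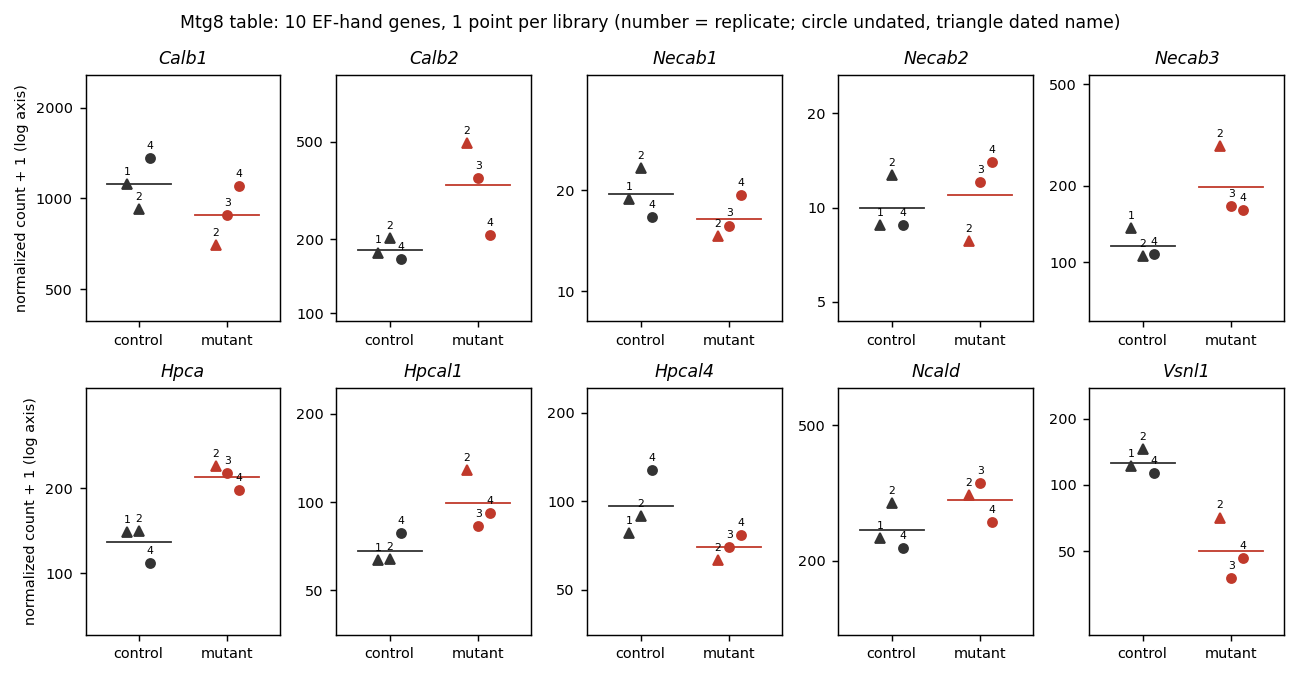
Normalized count + 1 (log axis) of the 10 genes in each library of the *Mtg8* table, with replicate numbers beside the points, 3 controls in black and 3 libraries labelled mutant in red. Circles are undated names, triangles dated names, and bars are group means on the log2 scale. *Vsnl1* is lower in all 3 mutants (36.8 to 70.2 against 112 to 144) and *Hpca* higher in all 3 (196 to 239 against 108 to 139.7).

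The 2 tables share no libraries, and each member's log2 differences are given side by side, with *Lhx6* first. *Calb1* had -4.34 with *Lhx6* and -0.35 with *Mtg8*. *Vsnl1* was below 0 in both, at -0.60 and -1.33, as were *Hpcal4* at -0.61 and -0.47 and *Necab1* at -1.03 and -0.24. *Hpca* had 0.05 and 0.78, and *Necab2*, at 0.50 with *Lhx6*, was not tested with *Mtg8*. *Calb2* (-0.60 and 0.88), *Necab3* (-0.61 and 0.77), *Hpcal1* (-0.29 and 0.54) and *Ncald* (-0.43 and 0.29) were below 0 in the *Lhx6* table and above 0 in the *Mtg8* table. None of these last 4 genes was called by limma in either comparison, and the sign of *Calb2* in *Lhx6* mutants turned with name style. In the same table *Hpcal4* shrank to -0.045 without mutant 1. *Hpcal1* turned there without control 2 (0.0057), and *Necab1* turned without mutant 2 in edgeR (0.094) and DESeq2 (0.11). *Necab1* was also above 0 within undated *Mtg8* names (0.066). The difference between the tables was not tested for any member.

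**Figure D5:**
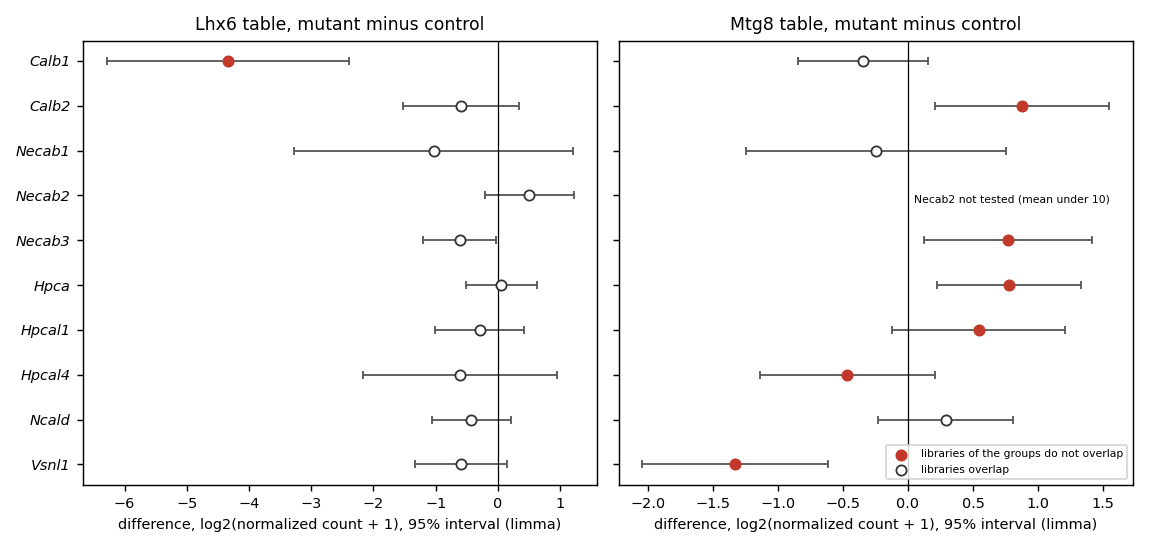
Log2 difference between mutant and control for each gene, from limma on log2(normalized count + 1), with 95% intervals, in the *Lhx6* table (left, 10 genes) and the *Mtg8* table (right, 9 genes), on different horizontal scales. Filled red points are genes whose control and mutant libraries do not overlap. *Calb1* stands at -4.34 on the left and *Vsnl1* at -1.33 on the right.

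Other EF-hand genes were read from a list of 44, made of neuronal calcium sensors, calmodulins and their relatives, other buffers and S100 proteins, other small EF-hand proteins, and EF-hand proteins of the secretory pathway. Of these, 33 were tested in the *Lhx6* table and 0 were called by limma, edgeR or DESeq2, with 1 at an unadjusted limma p under 0.05. The median log2 difference was -0.10, with 21 of 33 below 0. That gene was *Kcnip1*, a sensor that binds Kv4 potassium channels, with 825 to 959 normalized counts in controls and 499 to 762 in mutants. Its groups did not overlap, and its log2 difference was -0.45 (adjusted p = 0.218 from limma). The next smallest p-values were those of *Calu*, calumenin of the secretory pathway (log2 difference -0.41, adjusted p = 0.478 from limma), and of *Kcnip3* (-0.61, adjusted p = 0.501).

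Of the 44, 26 were tested in the *Mtg8* table, 0 were called by limma or edgeR and 1 by DESeq2, with 3 at an unadjusted limma p under 0.05. The median log2 difference was 0.17, with 10 of 26 below 0. *Cib2*, a calcium- and integrin-binding protein, was the gene called by DESeq2 (adjusted p = 0.0479). It was at 15.6 to 29.9 in controls and at 48.7 to 117 in mutants, with a log2 difference of 1.77 (adjusted p = 0.752 from limma). *S100a16* (1.44) and *S100a10* (0.71), which encode S100 proteins, followed, each with an adjusted p of 0.859 from limma. Parvalbumin (*Pvalb*), the EF-hand buffer of the other main class of MGE interneurons, was in neither table and was not analysed here.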

How the data were processed

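Sorted YFP-positive cortical cells of single E14.5 embryos were read as single ends of 75 bases. Per the labels, the authors used fastp 0.20.1, STAR 2.7b and featureCounts 1.6.4 with GRCm38.p6. The study's methods say that sex-linked genes were removed because the sexes were unevenly spread in control and mutant samples. Sex was not part of any fit here. The signal the authors deposited is a gene's read count divided by DESeq2's size factor of the library, with the 2 tables scaled separately. Columns of the authors' own comparison (mean, log2 fold change, error, statistic, p-values) were not used. Values were whole multiples of 1 read (100% within a tolerance of 0.01), which gave back the reads. Because the deposited unit is normalized, limma 3.58.1 (R 4.3.3) was the main test. It was fitted with a trend to log2(normalized count + 1) of all genes whose mean reached 10, two-sided, with Benjamini-Hochberg adjustment over each table and a threshold of 0.05. Samples were grouped by their titles. Alternatives were another pseudocount (0.5, 10), another minimum mean (none, 50), other scaling (TMM, equal totals), no trend, edgeR 4.0.16 and DESeq2 1.42.0 on recovered reads, a replicate block, dated naming as a covariate, and each library left out. limma, edgeR and DESeq2 were first tested on simulated data with a log2 change of 1.5. In the *Lhx6* setting they called 122, 120 and 138 of 193 changed genes, and 7, 8 and 30 unchanged genes. In the *Mtg8* setting they called 129, 132 and 143 of 198 changed genes, and 13, 11 and 38 unchanged genes. DESeq2 thus made the most false calls in both.

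Depth was 12218422 to 22053032 reads per library. Reads carry no molecular identifiers, so a floor of 3 reads covers counting error only, and the number of embryos limits precision. The 10 members and the lists were chosen with earlier results of these data known. Members were given in full where limma called them or the groups did not overlap, and otherwise by ranges or library values. Of the other EF-hand genes, those called by limma and the 3 with the smallest p in each table were named. Coding sequences came from GENCODE M21 on GRCm38, and gene positions from the deposited tables (GENCODE M23).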

Additional observations from a re-analysis of the deposited data

Results flagged for a closer look

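In 20 sets of values (10 members in the *Lhx6* controls and in the *Lhx6* mutants), 3 had a library far from the rest of its group by Dixon's test on normalized counts, which by chance marks about 1 set in 20. *Calb1* in *Lhx6* mutant 2 was 326, against 2.47 to 38.8 in the other mutants, and the gap was 0.888 of the group's range. *Hpcal4* in *Lhx6* mutant 3 was 172, against 7.42 to 47.2 in the other mutants. *Ncald* in *Lhx6* control 4 was 109, against 164 to 174 in the other controls. On the log2(normalized count + 1) scale, 2 sets were marked, *Ncald* in control 4 again (0.876 of the range) and *Vsnl1* in mutant 6, while the gaps of *Calb1* (0.464) and *Hpcal4* (0.423) did not reach the critical value. The *Mtg8* groups have 3 libraries each and were not examined this way.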

How the results depend on the processing

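limma called 286 genes in the *Lhx6* table, against 796 by DESeq2 (597 without mutant 2), 86 with the replicate block, 57 with name style as a covariate, and 159 to 492 with each library left out (the highest without mutant 6). *Calb1* was the 1 member called, and 0 members were called with limma without the trend, edgeR, DESeq2, the replicate block (*Calb1* -4.39, adjusted p = 0.154 from limma) or the name style, and 0 to 1 with each library left out. In the *Mtg8* table the count was 0 in limma, 1 with no filter, 2 with a minimum mean of 50, 1 by edgeR, 30 by DESeq2, 100 with the replicate block, and 0 to 87 with each library left out (87 without mutant 2). DESeq2 called 1 other EF-hand gene there. The replicate block rests on the 3 same-numbered pairs in the *Lhx6* table and on the 2 in the *Mtg8* table. It leaves little to estimate error from, so its counts of calls are unreliable. The cause of these changes was not tested.

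Of 218 *Lhx6* member values under the alternatives, 10 changed sign, 11 (all *Calb1*) lost the call and 197 kept direction and side of the threshold, and all 152 *Mtg8* values kept both. These counts leave out the values within a name style, of which 3 of 10 (*Lhx6*) and 5 of 18 (*Mtg8*) moved by more than 1 SD, and *Necab1* was 0.066 within undated *Mtg8* names. The changed signs were *Calb2* with name style (0.70), *Necab1* without mutant 2 in edgeR (0.094) and DESeq2 (0.11), and *Hpca* with equal totals (-0.0023), with the block (-0.13) and with libraries left out (-0.082 to 0.21). The last was *Hpcal1* with libraries left out (-0.50 to 0.0057). Same-numbered libraries did not deviate together in the *Lhx6* table (correlations -0.15 to 0.07 over 3 pairs). In the *Mtg8* table the 2 same-numbered pairs had 0.14 and 0.16, above every pair of unlike numbers (-0.18 to 0.08). The main test took the numbers as pairs in neither table, and whether they mark pairs in the *Mtg8* table is not settled. The block changed no other call among the members. Values of *Necab1* and *Necab2* rest on few reads.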

Other observations

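*Tac1*, the gene of substance P and neurokinin A, was looked up after values were seen, because it resembled *Calb1* in *Lhx6* mutant 2, and it is on the list of striatal projection neuron markers. It was at 49.0, 79.8, 53.4 and 114.6 normalized counts in *Lhx6* controls 1 to 4, at 122 in mutant 2, and at 0, 0, 2.91 and 8.67 in mutants 1, 3, 5 and 6 (adjusted p = 0.176 from limma with all libraries). In the *Mtg8* table it was at 74.9, 105 and 133 in controls 1, 2 and 4 and at 123, 173 and 164 in the libraries labelled mutant 2, 3 and 4. *Npy*, which encodes another peptide of these interneurons, was at 1334 in *Lhx6* mutant 2, inside the 1041 to 2213 of the other mutants and below the 4417 to 4862 of the controls.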
